A study of Mus musculus with 2 samples.

Results

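Complement genes were examined in astrocytes sorted from the cortex of mice after focal cerebral ischemia. The 8 genes were chosen by name: the C1q chains C1qa, C1qb and C1qc, the components C3 and C4b, the inhibitor Serping1, and the receptors C3ar1 and C5ar1. Of these, 7 had a named probe set on the array, which covered 19494 named genes, and each was above the background on both arrays. C3 had no named probe set among the rows used and was not analysed here.

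The cells came from the ipsilateral cortices of male C.B-17/Icr-+/+Jcl mice that underwent permanent middle cerebral artery occlusion (MCAO) at 7 weeks of age, and they were collected 15 days later by magnetic sorting for ACSA-2, an antigen on the astrocyte surface. All mice had been given a running wheel before surgery and received BrdU, a label of dividing cells, at 50 mg/kg/day on post-operative days 0, 1, 2 and 3. The MCAO + exercise mice had a running wheel for 15 days after MCAO, and the MCAO + non-exercise mice had none. For each group, RNA of several extracts, each from more than 1 mouse, was pooled and measured on 1 Clariom S array, and no array of cortex without ischemia was used here. With 1 array per group there was no spread between samples, so no difference was tested and none has an error. The precision is limited by having so few arrays.

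Complement is a cascade of plasma and tissue proteins that tags targets for removal. C1q binds a target and activates the proteases C1r and C1s, which cleave C4 and C2, and the resulting convertase cleaves C3, whose fragments coat the target or act on C3ar1. Cleavage of C5 then yields a ligand of C5ar1 and starts the membrane attack complex. In the brain, microglia are the main source of C1q, reactive astrocytes can make C3 and C4, and complement fragments mark synapses for uptake by microglia.

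The array labelled MCAO + exercise had the lower signal for all 7 measured genes, and none differed by more than 1 on the log2 scale, the threshold used for a called gene. Each difference is the log2 intensity of the exercise array minus that of the non-exercise array, and this direction by the deposited labels is opposite to that of the study's own gene lists. Of 72 genes in those lists that had a named probe set, 72 showed the reverse sign here, and none of the 8 complement genes was among them. Which of the directions holds for the mice was not settled, so a lower signal on the array labelled MCAO + exercise may stand for a higher one with exercise, and every direction given here is that of the labels. The differences ran from -0.06 for C5ar1 to -0.65 for Serping1, with a median of -0.29, against a median of 0.04 over the 15196 genes kept above background. Among those kept genes, 46.4% were below 0, 3.77% lay above 1 and 2.36% lay under -1. With 6.13% of kept genes past the threshold in either direction, a count of 0 of 7 does not set the complement genes apart.

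**Figure D1:**
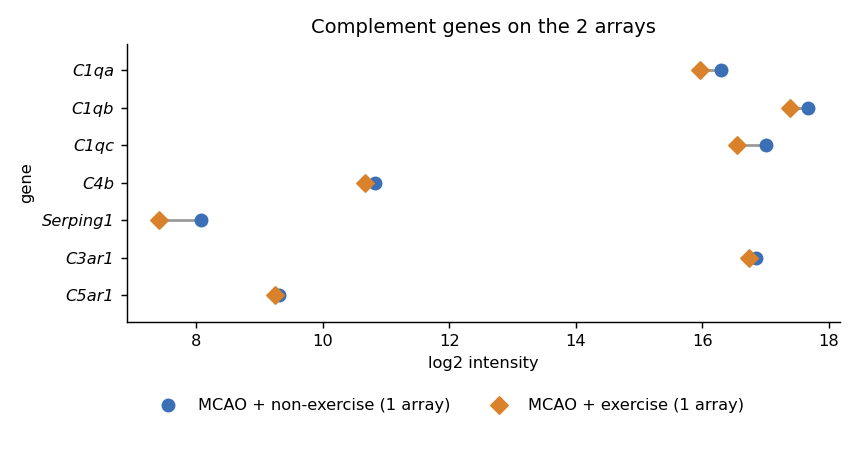
Log2 intensity (x axis) of the 7 measured complement genes (y axis) on the MCAO + non-exercise array (circles) and the MCAO + exercise array (diamonds), 1 pooled sample each. The diamond lies to the left of the circle for every gene, by 0.06 for C5ar1 up to 0.65 for Serping1. Levels of different genes come from different probes and are not comparable with each other.

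The spread of the differences depended on the signal level, so the kept genes were divided by mean level into 10 bins of equal size and each gene was set beside its bin. C1qa, C1qb, C1qc and C3ar1 fell in the brightest bin, where the lower quartile of the differences was -0.09 and the upper quartile 0.39. Of the 7 genes, 6 lay below the lower quartile of their own bin. The exception was C5ar1, at -0.06 against a lower quartile of -0.13. This comparison describes the 2 arrays and gives no measure of the spread between mice.

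**Figure D2:**
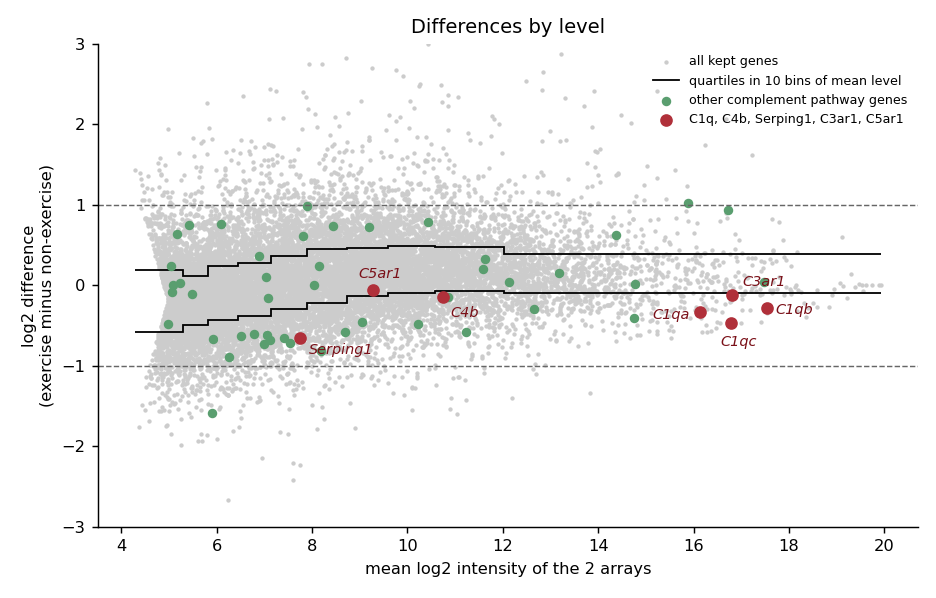
Log2 difference, exercise minus non-exercise (y axis), against the mean log2 intensity of the 2 arrays (x axis) for all kept genes (grey), other complement pathway genes (green) and the 7 measured complement genes (red, named). Steps are the lower and upper quartiles in 10 bins of mean level, dashed lines mark 1 and -1, and 13 kept genes lie outside the plotted range. All red points lie below 0 and between the dashed lines.

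The chains of C1q, the recognition unit of the classical pathway, were each lower on the exercise array. C1qa, the A chain, had an intensity of 80239 on the non-exercise array and 63760 on the exercise array, or log2 values of 16.29 and 15.96. C1qb, the B chain, had intensities of 208837 and 171162, or log2 values of 17.67 and 17.39. C1qc, the C chain, had intensities of 132186 and 95994, or log2 values of 17.01 and 16.55. The exercise array thus held 79.5% of the non-exercise signal for C1qa, 82.0% for C1qb and 72.6% for C1qc. The log2 differences of -0.33, -0.29 and -0.46 lay within 0.17 of each other, and 7.89%, 11.1% and 4.80% of the genes in the brightest bin had a lower one. The chains are encoded side by side on chromosome 4, in the order C1qb, C1qc and C1qa, and their products assemble into 1 protein. None of their signals was at the array maximum of 999964.

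The sequences upstream of the start sites are shown for the C1q chains with an entry in the RefSeq promoter table (GRCm38.p6). Any link between these sequences and the differences was not tested. C1qb is at chr4:136886201-136886450 and C1qc at chr4:136892915-136893164, both on the minus strand and written 5′ to 3′ up to the base before the start. Capitals mark GAGGAA, or its reverse complement TTCCTC, the core that PU.1, an ETS factor of the myeloid lineage, recognises.
C1qb: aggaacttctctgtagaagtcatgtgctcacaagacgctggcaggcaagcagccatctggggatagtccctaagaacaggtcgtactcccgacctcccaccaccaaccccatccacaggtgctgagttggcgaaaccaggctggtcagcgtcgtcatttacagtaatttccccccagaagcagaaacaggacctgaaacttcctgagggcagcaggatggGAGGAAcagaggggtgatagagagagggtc
C1qc: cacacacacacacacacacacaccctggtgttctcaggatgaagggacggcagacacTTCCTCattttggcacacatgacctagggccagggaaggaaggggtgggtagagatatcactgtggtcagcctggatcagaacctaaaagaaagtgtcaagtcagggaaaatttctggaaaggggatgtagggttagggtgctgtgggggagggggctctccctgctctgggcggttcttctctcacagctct
Counted from the start site, the match lay at -30 to -25 in C1qb on the gene's strand and at -193 to -188 in C1qc on the other strand. These letters occurred on either strand in 23.3% of 32851 promoters of the same 250 bases, so a match is common. Of the 8 genes, 5 had a promoter in the table, and the windows of C3, C3ar1 and C5ar1 did not hold them. Of the other motifs searched on both strands, the C/EBP letters TTGCNNAA, present in 9.56% of promoters, occurred upstream of C3, and the NF-kB letters (GGG, any 2 bases, TTTCC), present in 1.41%, upstream of C3ar1. The interferon-linked ISRE letters (GAAA, any 2 bases, GAAA) and GAS letters (TTCNNNGAA), present in 2.98% and 7.02%, occurred in none of the 5.

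The proteases that C1q activates did not share a direction. C1s1, the C1s protease, had log2 values of 7.90 and 7.18 on the non-exercise and exercise arrays, a difference of -0.71. C1ra, the C1r protease, had 6.70 and 7.06, a difference of 0.36. Over the C1 complex as a list, 4 of 6 kept genes were lower and the median was -0.31, but 3 of these 4 were the C1q chains. Both proteases have a close copy in the mouse, C1s2 and C1rb. C1s2 was below background on both arrays, at 4.97 and 4.55, and C1rb was dim, at 5.08 and 5.08. The array may still mix the signals of each pair, which leaves these values uncertain.

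Of the components that C1s cleaves, C4b had an intensity of 1812 on the non-exercise array and 1633 on the exercise array. Its log2 values were 10.82 and 10.67, and the exercise array held 90.1% of the non-exercise signal. The difference of -0.15 lay below the lower quartile of -0.06 in its bin, in which 19.2% of genes had a lower difference. C4a, a near-identical gene, had log2 values of 6.98 and 7.08 and a difference of 0.10, which turned to -0.0040 after centring each array on its median. The probe sets of C4a and C4b may share signal, so neither value is certain as that of a single gene. C2, the protease of the classical convertase, was at 7.36 and 6.63, a difference of -0.73. Of the alternative pathway, properdin (Cfp), which stabilizes the C3 convertase, had a difference of -0.15, and factor B (Cfb) one of 0.03, which changed sign after median centring.

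Serping1 encodes the C1 inhibitor, which inactivates C1r, C1s and the lectin pathway proteases, and it had the largest difference of the 7 genes. Its intensity was 269.2 on the non-exercise array and 171.1 on the exercise array, or log2 values of 8.07 and 7.42. The exercise array held 63.5% of the non-exercise signal, a difference of -0.65. In its bin the quartiles were -0.30 and 0.37, and 8.16% of genes had a lower difference. Other inhibitors in plasma and matrix went both ways. Cfhr2 had log2 values of 7.46 and 6.78, a difference of -0.68. Vitronectin (Vtn), which keeps the terminal complex from inserting into membranes, had 15.38 and 16.40, and clusterin (Clu), which does the same, had 16.25 and 17.19. The differences of 1.03 and 0.94 were the only ones above 0 among the 4 kept inhibitors of this kind, and Vtn was under the threshold after median centring, quantile normalization or a loess correction by mean level, at 0.90 in the lowest case.

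Inhibitors on cell membranes were likewise divided, 5 of 12 kept genes being higher and 7 lower, with a median of -0.22. Sez6, a neuronal sushi-domain protein that restrains C3 convertases, had log2 values of 6.69 and 5.11. Its difference of -1.58 was the only one past the threshold in this group. The exercise value lay close to the background of 4.89 on that array, and the difference was -1.02 with an offset of 32 before log2. Susd4, a sushi-domain inhibitor of the C3 convertase, had 7.39 and 8.38, a difference of 0.99. Cr1l (Crry), the main membrane regulator of C3 in mice, had 12.80 and 12.51, a difference of -0.29. Cd59a, which blocks the membrane attack complex, had 10.04 and 10.83, a difference of 0.79, and the close copy Cd59b had a difference of 0.74. Cd55, which speeds the decay of convertases, had a difference of -0.60. The directions of these genes held under every scaling tried.

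The receptors for the cleaved fragments had the smallest differences of the 7 genes. C3ar1, the receptor of the C3a peptide, had intensities of 118572 on the non-exercise array and 109049 on the exercise array, or log2 values of 16.86 and 16.73. The exercise array held 92.0% of the non-exercise signal, a difference of -0.12. C5ar1, the receptor of the C5a peptide on myeloid cells, had intensities of 635.5 and 608.6, or log2 values of 9.31 and 9.25. The exercise array held 95.8%, a difference of -0.06, and 30.0% of the genes in its bin had a lower one. C5ar2, the other C5a receptor, was dim and above background on the exercise array only. Its signal there was 1.65-fold the background of the non-exercise array, a ratio that depends on where the background was set. Of the integrins that bind C3 fragments, Itgax was at 11.52 and 10.93, a difference of -0.58. Itgam and Itgb2, which pair as complement receptor 3, had differences of 0.02 and 0.20, both of which changed sign after quantile normalization.

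Receptors reported to bind C1q and take up its targets had a median of 0.04, with 4 of 7 higher and 3 lower, and the median was below 0 after median centring (-0.07), quantile normalization (-0.06) and the loess correction (-0.01). Megf10, a phagocytic receptor of astrocytes, had log2 values of 8.84 and 9.56, a difference of 0.72. Scarf1, a scavenger receptor that recognises C1q on dying cells, had 8.58 and 7.77, a difference of -0.81. In the lectin pathway, which starts complement without C1q, the collectin Colec10 had a difference of -0.89 and the ficolin Fcna one of 0.76, with a median of 0.05 over 7 kept genes that turned to -0.06 after median centring, -0.13 after the loess correction and -0.17 after quantile normalization. In the terminal pathway, C7 had log2 values of 6.83 and 6.19, a difference of -0.63. C9 was above background on the exercise array only, at 1.33-fold the background of the non-exercise array. Over the 69 genes of the complement pathway lists, 65 had a named probe set and 53 were kept, of which 29 were lower and 24 higher, with a median of -0.10. Only Vtn was higher and only Sez6 lower by more than 1. The study's lists, which rest on another background filter, hold 1 gene of these pathways, Vtn, with the opposite sign. Sez6 is not in them. Without the 7 measured genes described above, 22 of 46 kept genes were lower and the median was 0.01.

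**Figure D3:**
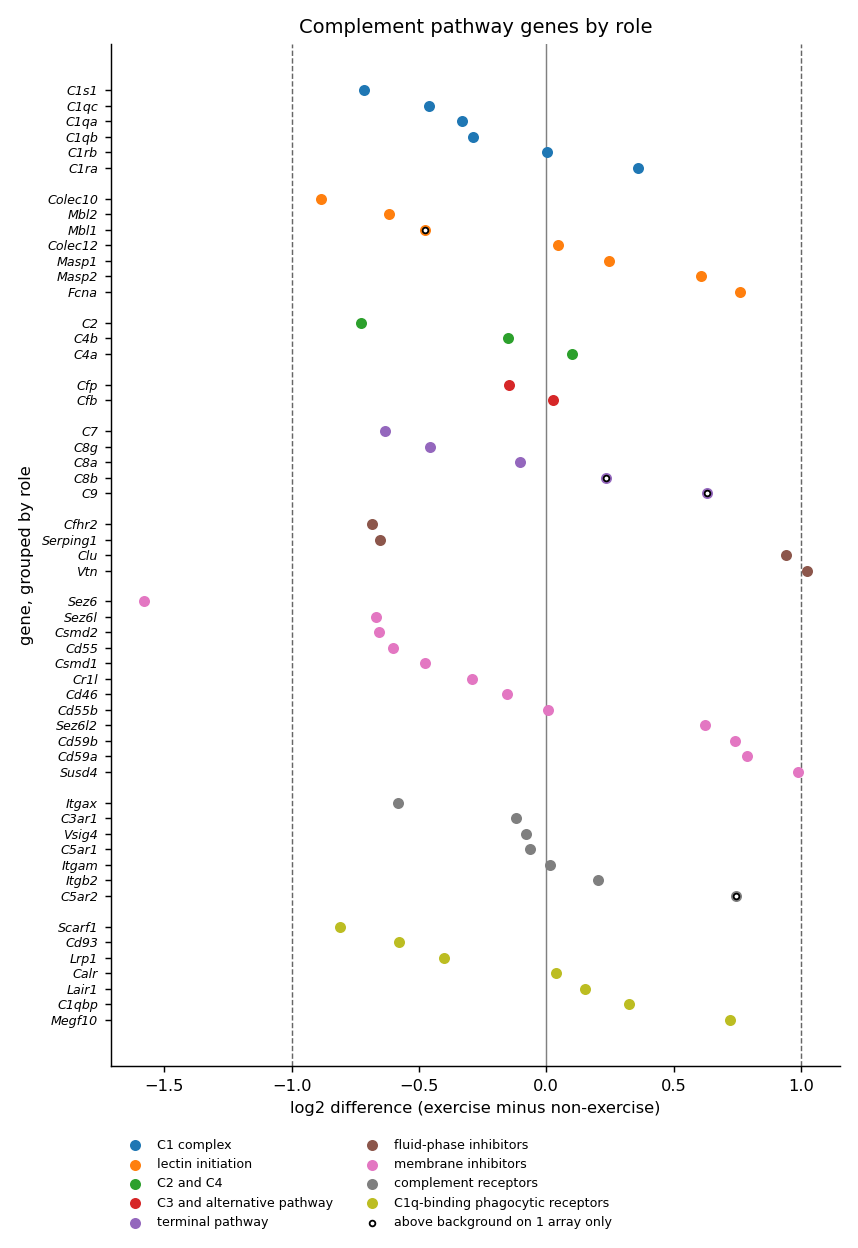
Log2 difference, exercise minus non-exercise (x axis), of the 53 kept complement pathway genes (y axis), grouped and coloured by role and ordered by difference within a role. Dashed lines mark 1 and -1, and open centres mark genes above background on 1 array only. Vtn lies above 1 and Sez6 below -1, and with the values as deposited every role holds genes on both sides of 0.

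The pools held transcripts of several cell types, and in such samples fewer cells of a type cannot be told apart from less RNA per cell. The astrocyte markers Aqp4 (10.07 and 11.31) and Slc1a2 (16.34 and 16.45) were above background on both arrays, as were all 18 kept astrocyte markers, which had a median difference of 0.69 and a summed intensity of 181212 on the non-exercise array and 278459 on the exercise array. Slc4a4, a bicarbonate transporter, had the lowest difference at 0.08, below 0 after median centring, quantile normalization and the loess correction, and Gpr37l1, an astrocyte receptor, the highest at 2.10. Each of the 7 complement genes had a lower difference than every one of these 18 markers, and the same held for the oligodendrocyte markers described next. Oligodendrocyte markers were higher for 11 of 11, with a median of 0.81 and summed intensities of 1083950 and 1651340. Mbp, a myelin protein, was at 0.60, Mobp had the highest difference at 2.06 and Trf the lowest at 0.01, which was below 0 after median centring and the loess correction. Neuron markers were higher for 9 of 11, with a median of 0.93 and summed intensities of 10205 and 43800. They ran from Syt1 at -1.60 to Camk2a at 3.13, and Snap25, a synaptic protein, was at 1.46. Camk2a, with log2 values of 12.06 and 15.19, made up most of the exercise sum. Gad2, among the higher markers, was above background on the exercise array only. Each of the 7 complement genes lay above 2 of these 11. Microglia markers were present too. Of 18 kept, 15 were lower, with a median of -0.15 and summed intensities of 1721340 and 1515360. The microglial surface receptors Cx3cr1 and P2ry12 had differences of 0.14 and 0.02, which changed sign after quantile normalization, whereas Tyrobp, an adaptor of phagocyte receptors, had one of -0.62 and Tmem119 one of 0.69. The C1q chains lay within the range of the microglia markers, with 5, 6 and 3 of the 18 markers below C1qa, C1qb and C1qc, and Serping1 lay below all 18. The chains also lay within the ranges of the neuron markers and of several lists described below.

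Markers of other cell types in the pools went in different directions. Markers of fibroblasts and meninges were lower for 10 of 11, with a median of -0.68 and summed intensities of 7820 and 4878. Col1a1 and Col1a2, the type I collagen chains, had differences of -1.03 and -0.95, Col3a1 had the lowest at -1.81 and Islr the highest at 0.44. Serping1 lay within the range of these markers, with 6 of 11 below it. It also lay within the ranges of the macrophage markers (2 of 12 below) and the A1 reactive astrocyte genes (1 of 9 below). All 13 endothelial markers lay above Serping1. Endothelial markers were lower for 13 of 13, with a median of -0.28 and summed intensities of 169110 and 134060. Most of both sums came from Ly6c1, with log2 values of 16.77 and 16.43. Cldn5 was at -0.52 and Pecam1 at -0.38, with Tek the lowest at -0.65 and Ramp2 the highest at -0.12. Macrophage markers had a median of -0.10 with 7 of 12 lower and sums of 27539 and 21195. Mrc1 was at -0.19, and Ms4a7 had the lowest difference at -1.04 and Lyve1 the highest at 0.77. Neutrophil markers, which share C5ar1, were higher for 9 of 10, with a median of 0.97. Of the 9, Ltf, Mmp9 and Elane were above background on the exercise array only, so the filter largely set their sign. With these 3 at their bound the median was 0.66. The summed intensities were 27887 and 27937, and S100a8 was at 1.04 and S100a9 at 0.89. Csf3r, with log2 values of 14.67 and 14.52, made up most of both sums. It had the lowest difference at -0.15, and Ngp had the highest at 2.83. Genes assigned to A1 reactive astrocytes, a class that Serping1 also belongs to, had a median of -0.15 over 9 kept genes, 6 of them lower. Their sums were 349494 and 280627, most of which came from Srgn alone, with log2 values of 18.34 and 18.02. H2-T23 was at -0.29 and H2-D1 at 0.12, the latter changing sign after quantile normalization. Fbln5 had the lowest difference at -0.81. Amigo2 was above background on the exercise array only, at 1.23-fold the background of the non-exercise array. The C1q chains, in the order C1qa, C1qb and C1qc, had 6, 6 and 4 of 13 endothelial markers below them. Macrophage markers gave 3, 3 and 3 of 12, and A1 genes 2, 4 and 2 of 9. Markers of fibroblasts and meninges gave 9, 9 and 8 of 11, and neutrophil markers 0 of 10 for each chain. The part of these cell types in the complement differences was not tested.

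**Figure D4:**
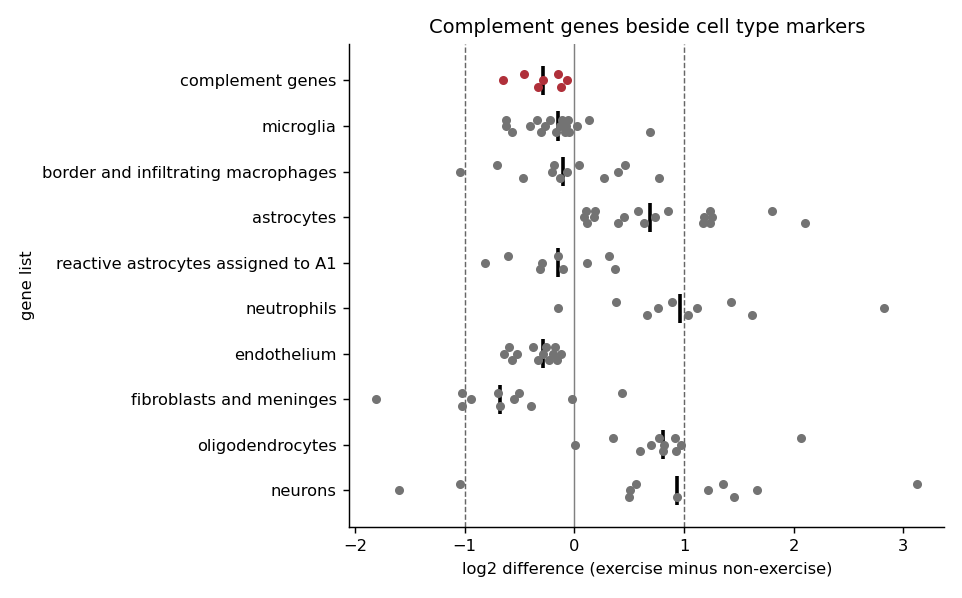
Log2 difference, exercise minus non-exercise (x axis), of the 7 measured complement genes (red) and of the kept markers of 9 cell type lists (grey), with 1 point per gene and a bar at each list's median. The complement genes, with a median of -0.29, lie to the left of all astrocyte and oligodendrocyte markers. Some or all of them fall within the range of each of the other lists.

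The lower signals on the exercise array held under each scaling tried. After centring, quantile normalization, a correction by mean level or an offset before log2, all 7 genes stayed below 0 and none passed the threshold. C1qc ranged from -0.59 to -0.46 and Serping1 from -0.76 to -0.57 over these settings. C5ar1 ranged from -0.24 to -0.06 and C3ar1 from -0.28 to -0.12. The offset can only shrink a difference, and centring here lowered every one, so neither could have raised a gene above 0. The counts over all genes moved more, from 573 higher and 359 lower to 433 and 575 after centring and to 403 and 99 with an offset of 32.

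**Figure D5:**
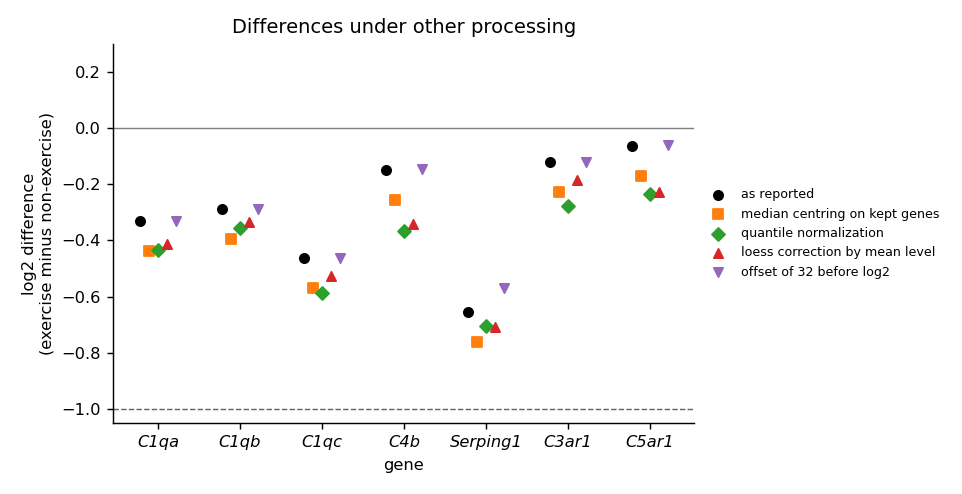
Log2 difference, exercise minus non-exercise (y axis), of the 7 measured complement genes (x axis) as reported and under the 4 settings that rescale the arrays. All points lie between 0 and the dashed line at -1, and Serping1 has the lowest values, from -0.76 to -0.57.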

How the data were processed

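RNA of sorted astrocytes was measured on 2 Clariom S arrays, 1 per group. The deposited intensities are linear values for 22142 probe sets, made for the authors by a contracted service with the GCCN-SST-RMA normalization. Affymetrix Expression Console and RMA appear in the submitters' processing notes. No genome build is stated there or in the methods. Normalization can compress differences of bright probe sets, and 52 probe sets had the same value on both arrays, none of a complement gene described here. Medians were 112.3 on the non-exercise and 106.4 on the exercise array.

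Log2 was taken. The platform annotation gave 1 symbol for 19527 probe sets, several for 0 and none for 2615. The probe set with the highest mean stood for a gene, and each complement gene measured had 1. Background was set on each array at the 25th percentile over named probe sets, 5.08 on the non-exercise and 4.89 on the exercise array (log2), passed on at least 1 array by 15196 genes. A gene passing on 1 array has only a bound, the bright value over the background or its own dim value, whichever was higher. The bound depends on the percentile chosen and has no error. Such a gene was kept through 1 array, so the filter largely set its sign. A difference above 1 or under -1 was called, the threshold in the methods of the study. The study's background filter was another one, set by its negative control, so counts of called genes are not comparable.

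The 8 genes and all lists were chosen with earlier results of these data known. All 8 genes, pathway genes past the threshold, and the extremes of each list and the first 2 genes of a marker list that were kept were named. Clu, Cr1l, Cd59a, Cd59b, Cd55, Itgam, Itgb2, C4a, C8a and Vsig4 were chosen after their values were seen, or as copies or partners of named genes. Alternatives were a 10th percentile background, a background passed on both arrays, no filter, median centring, quantile normalization, a loess correction (span 0.3), an offset of 32, averaging the probe sets of a gene, the turned sign and, for the pathway median, leaving out near-identical paralogs. The calculations were tested on simulated data. Promoters came from RefSeq (GRCm38.p6). Python 3.11.15, NumPy 2.4.6, pandas 2.3.3, statsmodels 0.14.6 and matplotlib 3.10.9 were used.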

Additional observations from a re-analysis of the deposited data

How the results depend on the processing

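No paired analysis was possible because each group had 1 array. A result counted as moved when it shifted by more than 0.25 on the log2 scale or, for a count, by more than 1.5 times. All 7 complement genes kept their direction and stayed under the threshold in the 8 alternatives other than the turned sign, and the median of the 7 ran from -0.39 to -0.29. The background settings and the mean of probe sets cannot change a single gene's difference here, as each of the 7 had 1 probe set. The offset cannot turn a sign, and median centring lowered every difference. Only quantile normalization and the loess correction could therefore have raised a gene above 0. With the sign turned, as the study's gene lists run, the differences were 0.33 for C1qa, 0.29 for C1qb, 0.46 for C1qc, 0.15 for C4b, 0.65 for Serping1, 0.12 for C3ar1 and 0.06 for C5ar1. Of the complement pathway genes, 1 was higher by more than 1, and 0 were after median centring, quantile normalization or the loess correction. Their median stayed below 0 throughout, from -0.21 to -0.06, was -0.12 without near-identical paralogs and was -0.10 with the 4 genes above background on 1 array at their bound. The count of all kept genes lower by more than 1 was 359 and became 230 with a background on both arrays, 575 after median centring and 99 with the offset. Median centring moved the median of all kept genes from 0.04 to -0.07, and the median of the 7 complement genes from -0.29 to -0.39. With the offset, the difference of Sez6 was -1.02. The signs of the dim genes C8a and Vsig4 also depended on the scaling. The causes of these shifts were not tested.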

Other observations

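Proteins that share the C1q head but are no part of complement gave mostly dim signals. Of 16 genes on this list, 15 had a named probe set, 7 were kept and 5 were above background on both arrays. C1qtnf1, a secreted relative, had log2 values of 5.90 on the non-exercise array and 5.38 on the exercise array, a difference of -0.53, and C1qtnf4 had 6.09 and 6.39, a difference of 0.30. The list had a median of -0.15, which turned to 0.06 after quantile normalization and 0.04 after the loess correction, and 0 of its kept genes were past the threshold.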
